A study of Mus musculus with 14 samples.

Results

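Neutrophils carry ready-made proteins in granules that are filled while the cells mature in the bone marrow, and mature cells that meet microbes or injured tissue add surface receptors that amplify inflammation. The values below follow 10 genes of these kinds in whole mouse colon, out of 19096 genes with a probe on the array. They were taken as the probes whose accession maps to Mpo and Elane (azurophil granules, filled first), to Ltf, Ngp, Camp, Lcn2 and Chil3 (granule and secreted proteins made mainly at later stages) and to Clec4e, Clec4d and Trem1 (receptors of activated mature myeloid cells). The 10 genes had 12 probes, with 2 each for Ltf and Trem1. Of these, 11 probes of 9 genes were well above background on at least 3 arrays and were tested, and the Elane probe, above background on 1 of 14 arrays, was not. The genes were chosen by their signals in colitis, against water and between genotypes, on these same arrays. Their values in those contrasts are therefore a description with no test. Only the contrast of genotypes on regular water, which did not choose them, is given as a test. The water arrays were still 1 side of the contrasts with DSS that did.

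The colons came from female C57BL/6 mice of 4 to 6 months on chow diet. All mice carried floxed alleles of the glucocorticoid receptor gene Nr3c1. Flox mice kept the gene, and GR iKO mice had lost it in intestinal epithelium through a Cre driven by the Villin promoter, so that neutrophils of both genotypes keep the receptor gene. Mice drank regular water (Flox control, n = 4; GR iKO control, n = 4) or water with 2.5% dextran sulfate sodium (DSS) for 7 days (Flox DSS, n = 3; GR iKO DSS, n = 3). DSS injures the colonic epithelium and brings on an acute colitis rich in neutrophils. Each array carried RNA of 1 colon, with Cy3 as the only dye. A level below is the log2 signal of a probe relative to the 75th percentile of all probes on its array, and it is not compared between genes.

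The 75th percentile itself was 262 to 675 intensity units in Flox DSS, 493 to 713 in GR iKO DSS and 707 to 1003 on water. The median log2 signal of 8 spike-in controls was 12.9 to 13.3 in Flox DSS, 12.0 to 12.6 in GR iKO DSS and 11.4 to 12.1 on water. Scaling to these spike-ins in place of the percentile took 2.40 off every log2 change with DSS in Flox and 0.94 off every one in GR iKO. It added 1.26 to every log2 difference of GR iKO over Flox on DSS. Set against Flox, the 4 probes of Nr3c1 in GR iKO read 47.6% to 57.3% for water-fed mice and 55.2% to 75.7% for DSS-fed mice, in tissue where cells other than epithelium keep the gene. The epithelial markers Epcam, Cdh1, Vil1, Krt8 and Cldn7 were well above background on every array.

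Granule genes of neutrophils are switched on in waves by a small set of transcription factors. C/EBP factors act on the genes of the later granules, and PU.1 acts across the myeloid lineage. The glucocorticoid receptor binds DNA itself as a pair of subunits. The 250 bases before the start site were read for all 10 genes from RefSeq promoters (GRCm38.p6). Those of 6 genes are shown because they stand for the azurophil genes (Mpo), the later granule genes (Ltf, Ngp, Lcn2) and the receptors (Clec4e, Trem1). They run 5′ to 3′ on the gene's strand and end at the base before the start site, with motif matches in capitals. They lie at chr11:87793534-87793783 (Mpo, plus strand), chr9:111019042-111019291 (Ltf, plus), chr9:110419558-110419807 (Ngp, plus), chr2:32387740-32387989 (Lcn2, minus), chr6:123289872-123290121 (Clec4e, minus) and chr17:48232489-48232738 (Trem1, plus).
Mpo: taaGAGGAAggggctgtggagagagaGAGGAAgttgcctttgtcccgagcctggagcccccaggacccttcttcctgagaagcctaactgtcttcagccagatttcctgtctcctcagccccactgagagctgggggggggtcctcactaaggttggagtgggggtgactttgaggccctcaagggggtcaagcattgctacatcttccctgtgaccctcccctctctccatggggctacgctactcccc
Ltf: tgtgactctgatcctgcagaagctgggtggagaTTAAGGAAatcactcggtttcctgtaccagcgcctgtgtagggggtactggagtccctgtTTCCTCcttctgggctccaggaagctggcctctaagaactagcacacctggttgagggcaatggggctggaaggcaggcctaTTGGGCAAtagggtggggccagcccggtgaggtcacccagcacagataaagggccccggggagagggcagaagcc
Ngp: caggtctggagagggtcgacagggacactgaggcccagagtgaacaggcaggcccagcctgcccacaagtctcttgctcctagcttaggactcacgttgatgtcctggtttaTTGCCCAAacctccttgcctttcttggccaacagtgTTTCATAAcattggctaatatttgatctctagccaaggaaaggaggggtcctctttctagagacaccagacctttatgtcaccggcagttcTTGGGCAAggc
Lcn2: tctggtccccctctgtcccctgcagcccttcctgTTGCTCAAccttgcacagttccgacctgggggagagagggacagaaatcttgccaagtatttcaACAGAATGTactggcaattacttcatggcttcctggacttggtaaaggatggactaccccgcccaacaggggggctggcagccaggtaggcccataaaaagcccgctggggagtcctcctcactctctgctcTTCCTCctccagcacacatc
Clec4e: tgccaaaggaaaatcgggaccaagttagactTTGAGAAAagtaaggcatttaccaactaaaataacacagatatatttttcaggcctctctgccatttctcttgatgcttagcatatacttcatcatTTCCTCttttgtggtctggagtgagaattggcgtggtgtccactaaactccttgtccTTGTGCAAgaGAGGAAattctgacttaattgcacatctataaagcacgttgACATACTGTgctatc
Trem1: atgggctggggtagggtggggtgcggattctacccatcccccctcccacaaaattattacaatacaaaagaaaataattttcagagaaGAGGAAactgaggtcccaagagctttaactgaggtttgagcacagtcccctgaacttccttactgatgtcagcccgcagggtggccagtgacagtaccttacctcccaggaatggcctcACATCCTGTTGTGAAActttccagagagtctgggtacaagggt

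In all, 5 motifs were searched on both strands. The C/EBP motif TTNNGNAA was found in Ltf, Ngp, Lcn2, Chil3, Clec4e, Clec4d and Trem1 and in none of Mpo, Elane and Camp. That is 7 of 10 members, beside 36.9% of all 32841 promoters. Ngp, Chil3 and Clec4d held 3 matches each. The PU.1 motif GAGGAA was in 7 of 10 members (23.3% of all promoters), absent from Ngp, Camp and Chil3. The core of the glucocorticoid receptor motif, ACANNNTGT, was in Lcn2, Chil3, Clec4e and Trem1 (4 of 10 members, and 5.84% of all promoters). In Trem1 it shared 1 base with the C/EBP match. The AP-1 motif TGANTCA (6.75% of all promoters) and the NF-kB motif (7.25%) had no match in the members' windows. Ltf, Ngp and Camp, 3 of the 5 later granule genes, lie on chromosome 9, with the start site of Ngp 599.5 kb from that of Ltf and 570.4 kb from that of Camp. The start sites of Clec4e and Clec4d are 27.8 kb apart on chromosome 6.

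**Figure D1:**
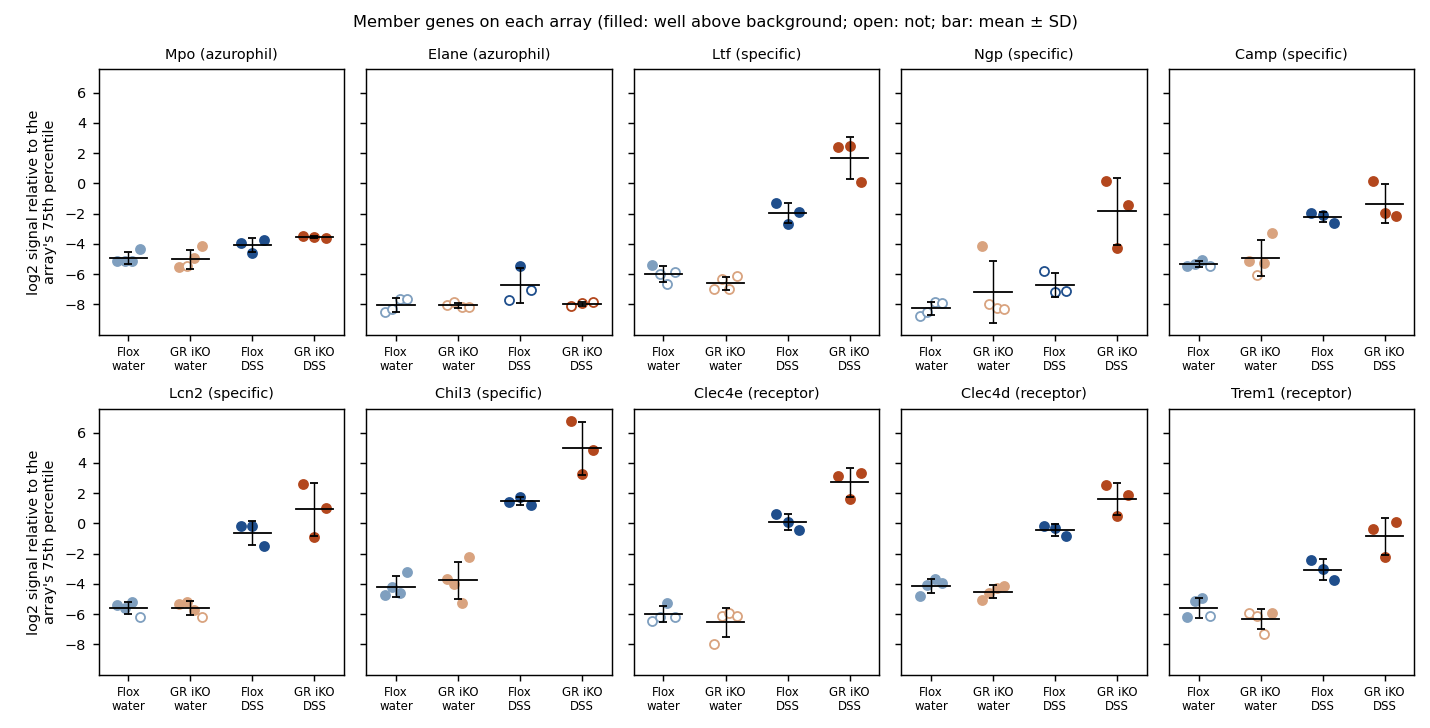
Log2 signal relative to the array's 75th percentile (vertical axis) for the 10 genes on each array, by group (horizontal axis). Filled points are well above background, open points are not, and bars give the mean and SD of 4 water or 3 DSS arrays. Mpo spans a narrow range, from -5.49 to -3.50, while Clec4e and Chil3 sit far higher on every DSS array than on any water array.

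The azurophil genes differed least between water and DSS. Mpo encodes myeloperoxidase, the enzyme that makes hypochlorous acid. Its levels were -5.11, -5.10, -5.14 and -4.32 in Flox control and -5.49, -5.48, -4.95 and -4.17 in GR iKO control. On DSS they were -3.92, -4.58 and -3.72 in Flox and -3.50, -3.54 and -3.60 in GR iKO. The lowest Flox DSS array lay below the highest water array, whereas the GR iKO arrays lay above all water arrays and close together. The log2 change with DSS was 0.84 (SE 0.32) in Flox and 1.48 (SE 0.32) in GR iKO. With spike-in scaling the Mpo change in Flox turned to -1.56, while the median of all probes was -2.49.

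Elane, which encodes neutrophil elastase, was near the floor of the array. On DSS its levels were -7.71, -5.45 and -7.03 in Flox and -8.10, -7.89 and -7.84 in GR iKO, against -8.53 to -7.61 on water. Only Flox DSS replicate 2 was well above background. The same array was also the one with the highest level of Ms4a3, a gene of early neutrophil precursors, at -2.69 against -8.45 to -4.12 on the others. It did not stand apart for Mpo, where it was the lowest of the 3 Flox DSS arrays.

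The later granule genes were far higher on DSS in both genotypes, with large differences among arrays. Ltf encodes lactoferrin, the iron-binding protein of specific granules. On its brighter probe the levels were -5.39, -6.00, -6.66 and -5.82 in Flox control and -6.96, -6.29, -6.95 and -6.15 in GR iKO control, above background on 1 of these 8 arrays. On DSS they were -1.28, -2.65 and -1.92 in Flox and 2.43, 2.50 and 0.09 in GR iKO. No DSS array overlapped a water array, and every GR iKO DSS array was above every Flox DSS array. The log2 change was 4.02 (SE 0.54) in Flox. In GR iKO, where no water array was above background, it came to at least 184-fold. The second Ltf probe gave 3.99 (SE 0.56) in Flox and at least 110-fold in GR iKO. GR iKO over Flox on DSS was 3.62 on both probes.

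Ngp, neutrophilic granule protein, was the most uneven of the tested genes in GR iKO DSS. Its levels were -8.77, -8.49, -7.84 and -7.92 in Flox control and -5.82, -7.21 and -7.14 in Flox DSS, none of them well above background. In GR iKO control they were -4.13, -7.98, -8.22 and -8.33, and in GR iKO DSS 0.15, -4.25 and -1.45. One GR iKO mouse on water, replicate 1, thus had a higher Ngp level than 1 of the 3 GR iKO DSS mice, and the GR iKO groups overlapped. Its SD in GR iKO DSS was 2.23, and that of Mpo, the lowest, 0.053. On DSS the difference of GR iKO over Flox was at least 11.6-fold. Ngp was the one tested gene that was not called between Flox DSS and Flox control, where its log2 change was 1.53 (SE 1.07). With spike-ins that change turned to -0.87.

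Camp, the precursor of the antimicrobial peptide cathelicidin, had changes of similar size in both genotypes. Its levels on DSS were -1.97, -2.10 and -2.62 in Flox and 0.15, -1.99 and -2.17 in GR iKO, against -5.48 to -5.07 in Flox control and -6.05 to -3.28 in GR iKO control. Apart from GR iKO DSS replicate 1, the DSS arrays of both genotypes covered the same range. The log2 change with DSS was 3.11 (SE 0.61) in Flox and 3.58 (SE 0.61) in GR iKO.

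Lcn2 encodes lipocalin-2, which takes bacterial siderophores out of reach and is also made by inflamed epithelium. Its levels on DSS were -0.15, -0.15 and -1.52 in Flox and 2.64, -0.87 and 0.99 in GR iKO, and all water arrays lay between -6.20 and -5.21. The lowest GR iKO DSS array lay within the range of Flox DSS and the others above it. The log2 change was 4.98 (SE 0.64) in Flox and 6.53 (SE 0.64) in GR iKO, and GR iKO over Flox on DSS was 1.53 (SE 0.69).

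Chil3 encodes the chitinase-like protein Ym1, made by neutrophil precursors and by macrophages. Its near-identical copy Chil4 may share the probe, so the value is uncertain between them. Levels were -4.74, -4.23, -4.59 and -3.22 in Flox control and -3.68, -3.97, -5.24 and -2.20 in GR iKO control. On DSS they were 1.44, 1.75 and 1.23 in Flox and 6.75, 3.28 and 4.84 in GR iKO. All GR iKO DSS arrays were above all Flox DSS arrays, and the 3 Flox DSS arrays were closer together for Chil3 than for any other tested member (SD 0.26). The log2 change with DSS was 5.67 (SE 0.77) in Flox and 8.73 (SE 0.77) in GR iKO.

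The receptor genes were also far higher on DSS on every array. Clec4e encodes Mincle, a C-type lectin that recognises glycolipids and signals of dead cells. Its levels were -6.46, -6.17, -5.25 and -6.18 in Flox control and -8.00, -6.12, -5.94 and -6.13 in GR iKO control, above background on 1 of these 8 arrays. On DSS they were 0.65, 0.06 and -0.44 in Flox and 3.17, 1.60 and 3.36 in GR iKO. No DSS array overlapped a water array, and no GR iKO DSS array overlapped a Flox DSS array. The log2 change was 6.11 (SE 0.55) in Flox and at least 378-fold in GR iKO.

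Clec4d encodes the neighbouring lectin receptor MCL, which pairs with Mincle. Its levels on DSS were -0.15, -0.29 and -0.86 in Flox and 2.56, 0.46 and 1.87 in GR iKO, with water arrays between -5.06 and -3.65. It was well above background on all 14 arrays, which Clec4e was not, so its change could be measured in full. The log2 change was 3.70 (SE 0.43) in Flox and 6.13 (SE 0.43) in GR iKO.

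Trem1 encodes an amplifier of neutrophil and monocyte responses that signals through the adaptor DAP12. On the brighter probe its levels on DSS were -2.41, -3.01 and -3.77 in Flox and -0.37, -2.24 and 0.07 in GR iKO, with water arrays between -7.33 and -4.93. The brighter probe gave a log2 change of 2.52 (SE 0.57) in Flox and 5.48 (SE 0.57) in GR iKO. The other, above background on no water array, gave at least 7.82-fold and at least 29.7-fold. Between genotypes on DSS they gave 2.22 (SE 0.61) and 2.09 (SE 0.42).

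**Figure D2:**
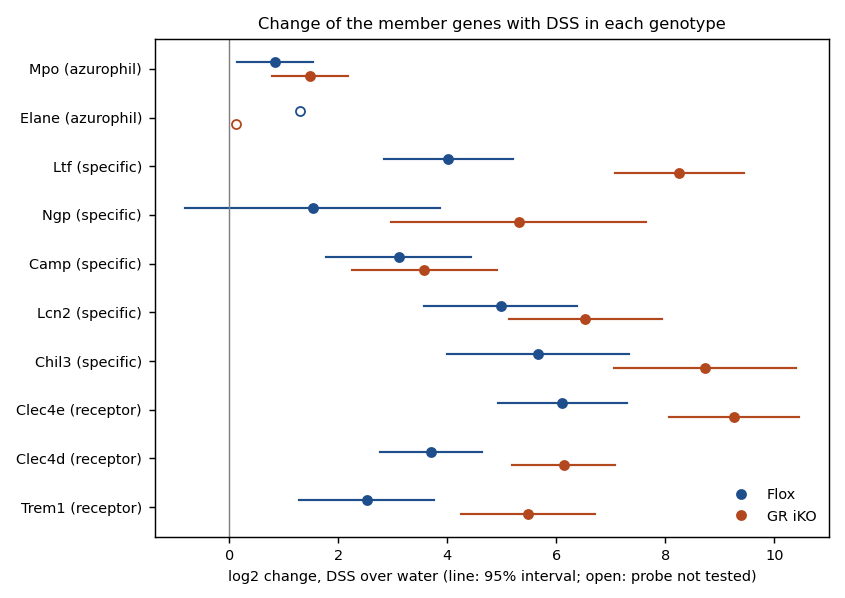
Log2 change of each gene with DSS (horizontal axis) in Flox and GR iKO, relative to the arrays' 75th percentiles, with the 95% interval of the fit. Elane, in open symbols, was not tested. For Ltf and Clec4e in GR iKO the water arrays were not above background, and for Ngp in Flox no array of either group was, so these fitted changes are not measured ones. The fitted change is larger in GR iKO for all 9 tested genes. With spike-in scaling the changes of Mpo and Ngp in Flox lie below 0.

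Counted over the members, 8 of 9 tested genes were called higher in Flox DSS than in Flox control (limma, adjusted p under 0.05), beside 24.4% of all probes called higher and 28.2% called lower. In GR iKO it was 9 of 9, beside 22% called higher and 22.5% called lower. The arrays did not overlap for 8 of the 9 genes in Flox, beside 25.8% of all probes wholly higher, and for 8 in GR iKO, beside 22.6%. The median log2 change of the members was 3.70 in Flox and 6.13 in GR iKO, and that of all probes -0.09 and -0.02. These counts follow from how the genes were chosen and nothing is read from them. In bulk tissue a larger number of neutrophils and more of these RNAs per cell cannot be told apart. Slides 1, 2 and 4 held a DSS and a water array of Flox, and slides 1, 3 and 4 of GR iKO. On each of them all 9 genes had higher levels, relative to the arrays' percentile, on the DSS array. In unscaled intensity units Mpo was lower on DSS on Flox slides 2 (28.3 against 29.2) and 4 (19.9 against 36.7). It was also lower on GR iKO slide 4 (40.6 against 41.2). Ngp was lower on Flox slide 4 (1.86 against 3.02), and the other genes were higher throughout. Ngp was above background on no Flox array, so no rise was measured for it there.

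Other neutrophil markers moved with the members. The signals of S100a8, S100a9, Cxcr2 and Csf3r, summed relative to the 75th percentile, were 0.10 to 0.52 on water. They were 23.2 to 65.7 in Flox DSS and 76.7 to 273 in GR iKO DSS. S100a9 made up most of each sum, and Ly6g had no probe. Levels of Cxcr2 on its brighter probe were -8.42 to -6.73 on water, -3.40 to -2.46 in Flox DSS and -2.09 to -1.14 in GR iKO DSS. Those of Csf3r were -6.21 to -5.07, -3.42 to -2.29 and -1.92 to -0.53. Markers of macrophages and monocytes were also higher, with 6 of 7 called in each genotype. The shares of all probes called higher were 24.4% in Flox and 22% in GR iKO. Their summed signals were 52.2 to 69.5 on water, 98.8 to 188 in Flox DSS and 197 to 244 in GR iKO DSS, of which Ly6c2, a monocyte surface marker, made up most. Without Ly6c2 they were 5.75 to 10.04 on water, 12.6 to 24.4 in Flox DSS and 13.5 to 23.6 in GR iKO DSS. Lcn2 and Chil3 are known products of epithelium and of macrophages as well, and the part of these cells in their change was not tested.

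The classes are set side by side here as means of fitted changes. They include genes with no measured level on one side (Ltf, Ngp and Clec4e in the groups named above) and Elane, which was above background on 1 array, so the class values are no measured folds. The mean log2 change with DSS over the 2 azurophil genes was 1.07 in Flox and 0.80 in GR iKO. Over the 5 later granule genes it was 3.86 and 6.48, and over the 3 receptors 4.11 and 6.96. The mean over all 7 granule genes minus that over the receptors was -1.05 in Flox and -2.10 in GR iKO. With the azurophil genes left out this gap shrank to -0.25 and -0.48, so most of it came from Mpo and Elane, the latter at background on nearly all arrays. Leaving out Lcn2 and Chil3, which other cells also make, widened it to -1.95 in Flox and -3.21 in GR iKO, and normexp background correction narrowed it to -0.58 and -1.29.

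Array by array, the balance between granule and receptor genes varied little in Flox DSS and more in GR iKO DSS. Relative to the mean of the 8 water arrays, the later granule genes averaged 4.18, 3.67 and 3.35 in Flox DSS and 8.16, 5.47 and 6.20 in GR iKO DSS. The receptors averaged 4.89, 4.44 and 3.83 in Flox DSS and 7.30, 5.46 and 7.29 in GR iKO DSS. GR iKO DSS replicates 1 and 4 thus had nearly the same receptor level and lay apart in the granule genes. The difference of the classes was -0.70, -0.77 and -0.48 on the Flox DSS arrays and 0.86, 0.01 and -1.09 on the GR iKO DSS arrays. It ran from -1.04 to 0.10 on Flox water arrays and from -0.22 to 1.51 on GR iKO water arrays, where some of these genes were at background. A wide spread is thus not particular to GR iKO DSS. Of the 9 tested genes, 6 were highest on GR iKO DSS replicate 1, Clec4e and Trem1 on replicate 4, and Ltf on replicate 3. On the other Trem1 probe replicate 1 was higher than replicate 4, at -0.26 against -0.63, and with that probe in place of the brighter one the receptor means of the 2 arrays were 7.87 and 7.58.

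**Figure D3:**
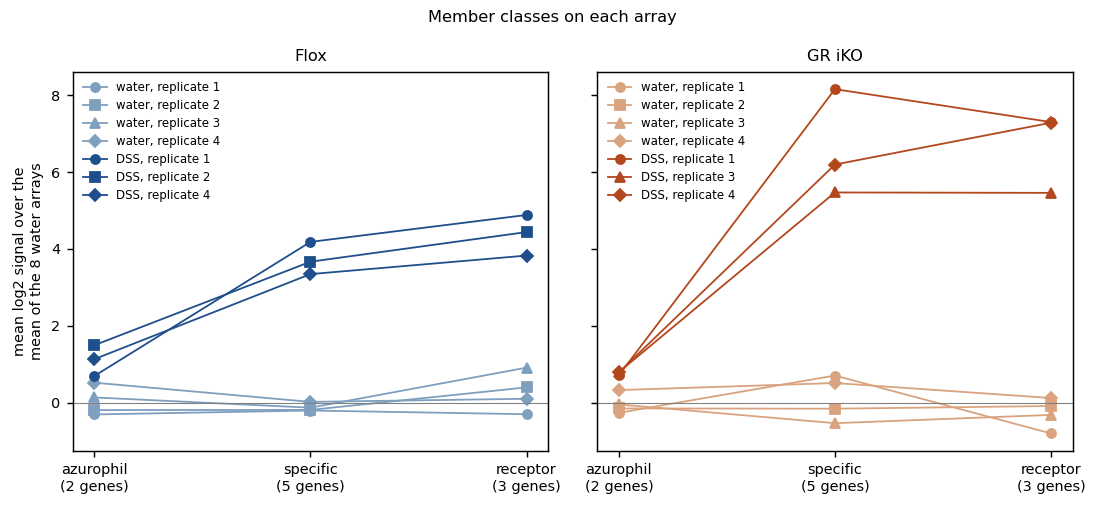
Mean log2 signal of 2 azurophil, 5 later granule (specific) and 3 receptor genes over the mean of the 8 water arrays (vertical axis), with 1 line per array that links the classes. The azurophil means, to which Elane adds mostly background, lie between 0.69 and 1.49 on the DSS arrays. The lines of GR iKO DSS replicates 1 and 4 meet at the receptors, at 7.30 and 7.29, and part at the specific genes, at 8.16 and 6.20.

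On regular water the genotypes were compared with a test, since this contrast did not choose the genes. The same water arrays entered the contrasts with DSS that did, so the test is not fully independent of the choice. None of the 9 tested genes was called (limma, adjusted p = 0.9999 for each, and none at an unadjusted p under 0.05), beside 0.00339% of all probes, and the methods' t-test called none. The log2 differences of GR iKO over Flox ran from -0.75 for Trem1 to 1.09 for Ngp, with a median of -0.11. All 3 receptors were lower, from -0.75 to -0.37, and their groups overlapped as those of all 9 genes did, beside 1.27% of all probes with GR iKO wholly above Flox and 0.989% wholly below. The 95% intervals, from a spread pooled over water and DSS arrays, were wide. That of Clec4d, measured on all arrays, ran from -1.24 to 0.50, and that of Ngp from -1.07 to 3.25. Ngp, Ltf and Clec4e were not above background on most water arrays and passed the filter through DSS arrays. Small differences were not measurable there, so the lack of a call for these genes says little. The difference of Ngp rests on GR iKO control replicate 1, at -4.13 against -8.33 to -7.98 in the others of its group.

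On DSS, GR iKO lay above Flox for all 9 tested genes. The log2 difference ran from 0.53 (SE 0.34) for Mpo and 0.89 (SE 0.65) for Camp to 3.48 (SE 0.82) for Chil3 and 3.62 (SE 0.58) for Ltf, with Ngp at least 11.6-fold. The groups did not overlap for Mpo, Ltf, Ngp, Chil3, Clec4e, Clec4d and Trem1 and overlapped for Camp and Lcn2, beside 11.2% of all probes with GR iKO DSS wholly above. Of the 9 genes, 6 were called (Ltf, Ngp, Chil3 and the receptors), beside 6.44% of all probes called higher and 6.78% called lower. This contrast too chose the members. None was called when limma was fitted to the 6 DSS arrays alone (6 at an unadjusted p under 0.05), with separate weights for water and DSS (6) or by the methods' t-test (5). Without Flox DSS replicate 2, or without GR iKO DSS replicate 1, 1 gene was called.

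The difference was smaller on 1 slide than on the other that held both genotypes on DSS. On slide 1, with 1 DSS array of each genotype, 7 of 9 genes were higher in GR iKO, with a median of 0.61 and values from -0.72 for Lcn2 to 3.77 for Ltf. On slide 4 all 9 were higher, with a median of 2.73 and values from 0.12 for Mpo up to 5.69 for Ngp, whose Flox array was not above background. With slide as a block 3 of the 9 genes were called. The mean granule difference minus the mean receptor difference was -0.34, turned to 0.10 without GR iKO DSS replicate 4 and was 0.58 with Mpo and Elane left out, so it has no settled direction.

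Other tissue markers differed between these groups as well. The smooth muscle genes Myh11, Des and Actg2 had summed signals of 144 to 231 in Flox DSS and 40.2 to 109 in GR iKO DSS. All 3 were called lower in GR iKO, beside 6.78% of all probes. No macrophage and monocyte marker was called between genotypes on DSS (0 of 7 by limma, with Ly6c2, named after its values were seen, at an unadjusted p of 0.0075 and a difference of 0.79). Among epithelial markers 2 of 5, Epcam and Cldn7, were called higher in GR iKO, beside 6.44% of all probes. The part of tissue makeup in the difference was not tested. No member was called for the interaction of genotype and DSS (limma, 6 of 9 at an unadjusted p under 0.05, lowest adjusted p = 0.055 for Ltf), beside 0.112% of all probes. The members were chosen with this contrast in view too, so these values are a description. No GR iKO water array was above background for Ltf. Alternatives called up to 8, the most with spike-ins, where 20400 of all 29523 tested probes were called.

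Genes of the same pathways that are not members were looked at next. They were listed with earlier results of these data known, so their calls and p-values on DSS are a description. These lists hold 40 genes, of which 34 had a probe and 32 were tested. Relative to the 75th percentile, 21 were called higher and 2 lower on DSS in Flox, beside 24.4% and 28.2% of all probes. With spike-ins it was 7 higher and 14 lower, where 26548 of all 29523 tested probes were called and only 301 of them higher. In GR iKO 26 were called higher and 2 lower, beside 22% and 22.5% of all probes. With spike-ins it was 19 higher and 2 lower, where 16856 probes were called and 1155 of them higher. On water none was called between genotypes (limma, none at an unadjusted p under 0.05). On DSS 11 were called higher in GR iKO and 0 lower, beside 6.44% and 6.78% of all probes. None was called when limma was fitted to the DSS arrays alone (18 at an unadjusted p under 0.05), with separate weights for water and DSS (12) or by the methods' t-test (14). The count called was 5 without Flox DSS replicate 2 and 6 without GR iKO DSS replicate 1.

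Among 8 tested genes listed for granules or maturation of neutrophils, 2 were called higher and 2 lower in Flox. The shares of all probes there were 24.4% and 28.2%, so these counts lie near those of all probes. In GR iKO 3 were called higher and 2 lower, beside 22% and 22.5% of all probes. Mmp8, the collagenase of specific granules, had levels of -1.88, -2.81 and -2.48 in Flox DSS and 2.29, -1.01 and 0.76 in GR iKO DSS, and was above background on no water array. It rose at least 12.3-fold in Flox and at least 92.4-fold in GR iKO, and was higher by 3.07 log2 units in GR iKO on DSS (adjusted p = 0.0116, limma). Ctsg, the azurophil protease cathepsin G, was measured on all 14 arrays and its log2 change was 0.09 (SE 0.42) in Flox and -0.19 (SE 0.42) in GR iKO. Prtn3, proteinase 3 of azurophil granules, is named after its values were seen. It was called in both genotypes, at 0.91 and 0.89, and with spike-ins its change lay below 0 in both. Ms4a3, above background on 3 of 14 arrays, was called in neither genotype.

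The rest of that list went other ways. Pglyrp1, a peptidoglycan-binding granule protein, rose by 1.24 (SE 0.15) in GR iKO and was higher there than in Flox on DSS by 0.94 (adjusted p = 0.0082, limma), with 0.34 (SE 0.15) in Flox. Cd177, a surface protein of neutrophils, fell by 3.06 in Flox (adjusted p = 0.00158, limma) and fell by 1.78 in GR iKO (adjusted p = 0.0376, limma). Gfi1, a repressor needed for neutrophil maturation and also used by secretory cells of the gut, fell by 2.56 in Flox and fell by 1.66 in GR iKO. On water Pglyrp1 was at 3.31 to 3.68, Cd177 at 0.21 to 2.64 and Gfi1 at -0.28 to 1.04. Which cells gave these signals was not tested, so the falls are not read as falls in neutrophils. In these groups the summed signal of the goblet cell markers Muc2, Tff3 and Clca1 ran from 560 to 844 without DSS and from 175 to 1151 with it, and its part in the change was not tested.

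Genes of mature neutrophils were higher in both genotypes, relative to the 75th percentile. On DSS 11 of 12 were called higher in Flox and 12 of 12 in GR iKO, beside 24.4% and 22% of all probes. Padi4 and Itgam were among those turning below 0 in Flox with spike-ins. S100a9 and S100a8, the subunits of calprotectin, had log2 changes of 8.08 and 7.26 in Flox and 9.65 and 9.76 in GR iKO. Retnlg, a resistin-like secreted protein of neutrophils, changed by 5.45 and 8.07. Mmp9, the gelatinase, was the exception in Flox at 0.62 (SE 0.36, adjusted p = 0.165, limma) and rose by 2.45 (SE 0.36) in GR iKO. Genes called higher in GR iKO on DSS included S100a8 by 2.84, Fpr2, a formyl peptide receptor, by 2.00, Mmp9 by 1.58 and Csf3r, the G-CSF receptor, by 1.53.

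Of 5 tested adaptors and signalling proteins of the member receptors, 2 were called higher in Flox and 4 in GR iKO. The shares of all probes called higher were 24.4% and 22%. Fcer1g, the Fc receptor gamma chain that carries the signal of Mincle and MCL, rose by 2.32 in Flox and 2.83 in GR iKO. Tyrobp, which encodes DAP12, rose by 1.60 and 2.29. With spike-ins both turned below 0 in Flox. Neither was called between genotypes on DSS. The kinase Syk and the scaffold proteins Malt1 and Bcl10, which act downstream, changed in Flox by -0.03, -0.30 and -0.22, none of them called. In GR iKO Syk rose by 1.10 and Malt1 by 1.13, and Bcl10 changed by 0.30 (adjusted p = 0.0584, limma). All 3 were called higher in GR iKO than in Flox on DSS, by 1.11, 1.42 and 0.62. Levels of Malt1 were -0.85, -0.91 and -0.59 in Flox DSS and 1.01, 0.16 and 0.75 in GR iKO DSS. Card9 had no probe.

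Among receptors related to the members, on DSS 6 of 7 tested were called higher in Flox and 7 of 7 in GR iKO. The shares of all probes called higher were 24.4% and 22%. Clec4n, Clec4a2, Clec4a3, Trem2 and Treml1 turned below 0 in Flox with spike-ins. Trem3 was higher by at least 5.37-fold and at least 9.81-fold. Clec4a3 changed by 2.40 in Flox and 2.45 in GR iKO, and Trem2, a receptor of macrophages, by 2.24 and 2.14. Clec4n, dectin-2, and Treml1, with the smallest mean changes over both genotypes, changed by 0.92 and 0.90 in Flox and 1.64 and 1.32 in GR iKO. Treml4 alone was called between genotypes on DSS, higher in GR iKO by 1.72 (SE 0.35, adjusted p = 0.0123, limma).

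**Figure D4:**
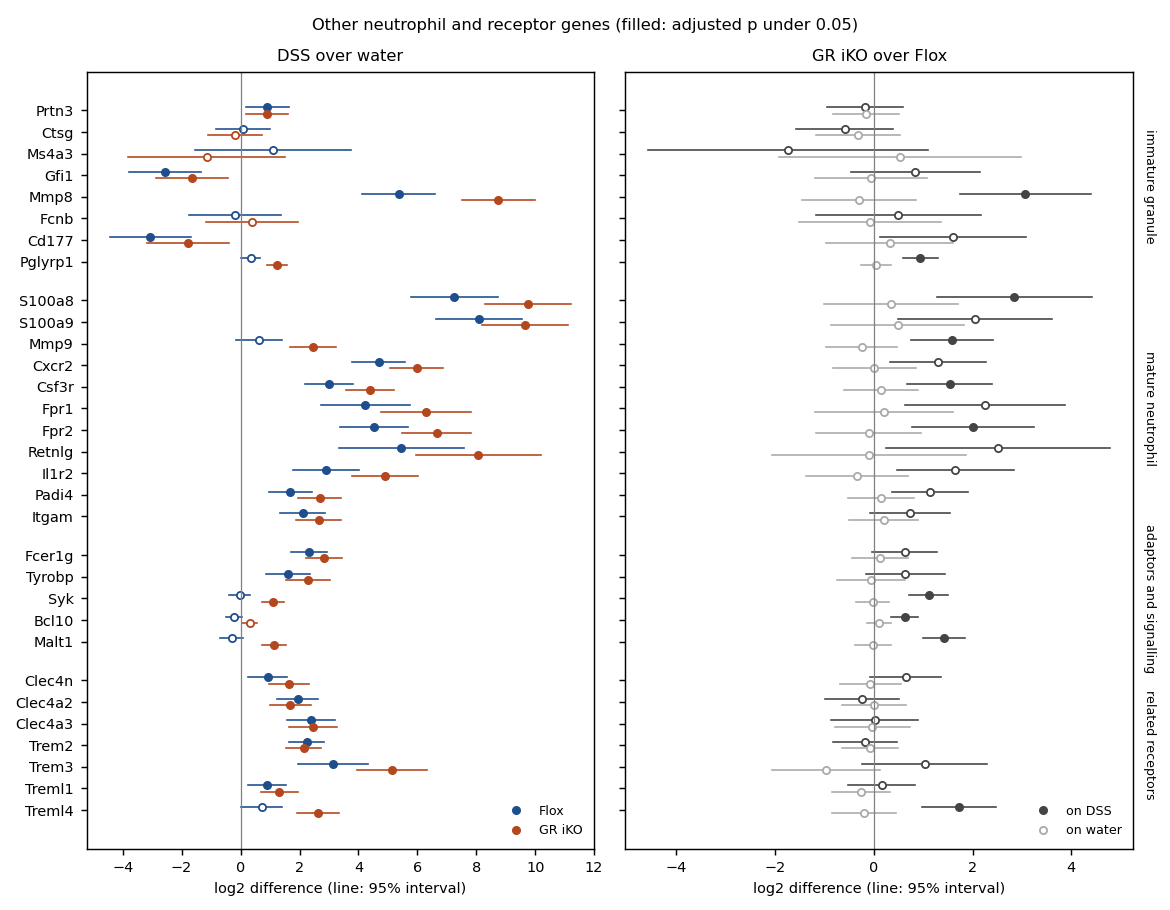
Log2 difference of related genes that are no members, with 95% intervals, for DSS over water in each genotype (left) and GR iKO over Flox on each treatment (right), relative to the arrays' 75th percentiles. Filled points have an adjusted p under 0.05. The mature neutrophil genes lie right of 0 on the left panel and no point on water is filled. With spike-in scaling 11 of all 21 related genes called higher in Flox fall below 0, and 1 tested gene is not drawn.

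The genes whose levels ran most like the members over the 14 arrays were searched among 15489 genes. With the mean of the 6 granule genes that were above background often enough, Csf3 (G-CSF, the growth factor of neutrophils) had the highest Pearson r, 0.990, and 0.988 over the 6 DSS arrays. Next were Cxcl3, a neutrophil-attracting chemokine, Cd300lf, Gpr84 and F10, all at 0.986 to 0.989. With the mean of the receptors the nearest were F10 (coagulation factor X), Il1b (interleukin-1 beta), Hdc (histidine decarboxylase), Ptpn1 and Fpr2, at 0.988 to 0.991. For Il1b the value over the 6 DSS arrays was 0.998. The 14 arrays fall into a water and a DSS cluster and share their scaling, so these coefficients describe these arrays only.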

How the data were processed

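Total RNA of whole colon had been hybridised to Agilent 4x44K mouse arrays with 1 dye, 1 array per mouse (14 arrays on 4 slides, 41174 probes after 1639 control spots were left out). The authors deposited scanner files, made with Agilent Feature Extraction 12.0.0.7, whose processed signal is an intensity, corrected for background within the array and not scaled between arrays. They also deposited a table of log2 values. Its columns have equal quartiles, and how it was normalized is not given in the sources used here. Partek 6.6 is named in the labels. The precision is limited by the number of arrays per group.

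Here log2 processed signal minus the array's 75th percentile was used, with spots flagged as outliers set aside. limma 3.58.1 in R 4.3.3 (lmFit, eBayes) fitted all 14 arrays, over 29523 probes well above background on at least 3 arrays, with Benjamini-Hochberg adjustment and calls at an adjusted p under 0.05. P-values and SEs rest on the spread between mice within groups, pooled for each probe over all groups. The median residual variance was 0.035 on water and 0.116 on DSS. The pooled value thus overstates the typical spread on water and understates it on DSS. A gene was read from its brightest probe. Where no array of the dimmer group was well above background, the fold is at least the brighter group's mean over, per dim array, the higher of the lowest signal among probes above background and the probe's own signal. Genes were named through accessions matched to RefSeq (19096 symbols). Alternatives were quantile scaling, the deposited log2 table, normexp background correction, spike-in scaling, other filters, slide or replicate number as a block, array weights, the compared groups only, the methods' t-test and leaving out each array. The files lack the mean signal, so normexp used the median signal. Motifs were searched in the 250 bases before the start site, and all promoters of the RefSeq table were searched in the same way. The fit was tested on simulated data.

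The members and the lists of related genes were chosen with earlier results of these data known. All members are named. From each list the text names the 3 genes with the largest and the 2 with the smallest mean change with DSS and any called between genotypes, besides those whose direction turns with spike-ins. For the likeness to other genes, the 5 with the highest Pearson r are named. The values of 1 gene of these lists are not reported here, though counts over the lists include it.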

Additional observations from a re-analysis of the deposited data

Results flagged for a closer look

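Of the 10 genes in each of the 2 water groups, 4 had 1 of 4 mice far from the other 3, by the share of the group's range that the gap took up. Chance alone marks about 1 in 20 groups. Mpo in Flox control replicate 4 was at -4.32, against -5.14 to -5.10 in the others (share 0.952). Ngp in GR iKO control replicate 1 was at -4.13 and well above background, against -8.33 to -7.98 (0.917). Clec4e on the same array was at -8.00, against -6.13 to -5.94 (0.907), none of them above background. Trem1 in GR iKO control replicate 3 was at -7.33, against -6.13 to -5.91 (0.844).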

How the results depend on the processing

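Over 1197 log2 changes of the 9 tested members under alternatives, 1099 kept direction and side of the threshold, 55 lost the call, 30 gained it and 13 changed sign. With spike-ins the changes in Flox turned to -1.56 for Mpo, a called value, and -0.87 for Ngp, and with normexp Mpo between genotypes on DSS turned to -0.084. The other 10 came with 1 array left out. On water Mpo then ran from -0.39 to 0.092, Lcn2 from -0.22 to 0.17, Camp from -0.13 to 0.79 and Chil3 from -0.10 to 0.91, and the interaction of Camp ran from -0.27 to 1.018, below 0 without GR iKO DSS replicate 1. The causes were not tested. For GR iKO over Flox on DSS, the count of members called (6) became 3 with slide as a block and 0 with the compared groups only, separate weights or the methods' t-test. The count of related genes (11) became 17 with normexp, 27 with spike-ins, 6 with slide, 7 with array weights and 0 with the compared groups only, separate weights or the methods' t-test. For the interaction (0 and 0), members and related genes called were 1 and 1 with quantile scaling, with the deposited table and with the stricter filter, 8 and 27 with spike-ins and 4 and 7 with array weights. Over all probes it had 33 calls in the main fit, 172 with quantile scaling, 142 with the deposited table and 122 with the stricter filter. It had 20400 of 29523 with spike-ins and 2956 with array weights. With 1 array left out, members called ran from 7 to 8 in Flox, 9 throughout in GR iKO, 0 on water, 1 to 7 between genotypes on DSS and 0 to 5 for the interaction, the highest without GR iKO DSS replicate 3. Related genes ran from 20 to 24, 25 to 28, 0, 5 to 16 and 0 to 10.

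The labels do not say that a replicate number marks anything shared, so the numbers were not taken to pair the mice. Same-numbered deviations were still somewhat more alike. Their correlation was above 0.1 in 9 of 18 pairs (-0.23 to 0.31, median 0.10), against 11 of 55 differently numbered pairs (median -0.02). Pairs on the same slide gave 9 of 18 as well (median 0.09). Number and slide coincide on all Flox arrays, so the 2 cannot be told apart there. With the replicate number as a block, 8, 9, 0, 5 and 0 members and 21, 26, 0, 7 and 0 related genes were called. The granule minus receptor difference was -0.58 in Flox and -1.29 in GR iKO with normexp, -1.37 in Flox with the mean over probes, and -1.95 and -3.21 without Lcn2 and Chil3. With 1 array left out it ran from -1.25 to -0.90 in Flox, -2.34 to -1.66 in GR iKO and -0.58 to 0.10 between genotypes, positive without GR iKO DSS replicate 4. Over all probes, calls between genotypes on DSS numbered 3903, against 1612 with slide as a block, 22506 with spike-ins, 6 with separate weights (5343 at an unadjusted p under 0.05), 0 with limma on the compared groups only (4794) and 0 by the methods' t-test (4263). Of the calls between genotypes on DSS 48.7% were higher in GR iKO, against 99.8% with spike-ins and 33.7% with normexp. In Flox 46.4% of calls were higher on DSS, against 1.13% and 65.0%.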
